A study of Mus musculus with 42 samples.

Results

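The cells that remained negative for the Gsc reporter were followed from day 3 (d3) to day 5 (d5) of the conversion of mouse embryonic stem cells (ESCs) into anterior definitive endoderm (ADE). They were chosen by sample title, as the 3 arrays of the d5 Gsc-negative (G-) population against the 3 arrays of the d3 G- population, which makes 6 of the 42 arrays of the series. Both groups came from the same dual reporter ESC line, which carries a green fluorescent reporter in Gsc and a red one in Hhex, were grown in ESC medium with LIF and then differentiated in flasks without any drug, and were isolated by FACS as reporter-negative cells on d3 or d5. The series labels the 3 arrays of a group as independent experiments. The sort was made on reporter protein and the data rest on 1 cell line, and cells of different kinds that share the absence of Gsc reporter were collected together. For comparison, the d4 G- population, the d3 G+ population and the Gsc-low (Glow) and Gsc-high (Ghigh) populations of d5, with 3 arrays each, were taken from the same line and protocol. Each array measured total RNA of a bulk population, so that fewer cells of a type and less RNA per cell cannot be told apart.

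Gsc encodes a homeodomain factor of the primitive streak and the mesendoderm that lies under it. During gastrulation, epiblast cells shut down the pluripotency network and enter the streak, where high Nodal signalling favours anterior mesendoderm and endoderm and BMP signalling favours posterior, extraembryonic and lateral plate mesoderm. Kdr, Hand1 and Foxf1 are classical genes of the mesodermal branch, and Sox17, Foxa2 and Cer1 of the endodermal branch. Gata4 belongs to both, and the study names it as an endoderm gene. Zfp42, Nr5a2 and Tdh belong to naive pluripotent cells.

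Between d3 and d5 the G- cells lost transcripts of naive pluripotency, with 7 of 16 listed genes called lower, and gained mesodermal transcripts, with 10 of 34 called higher, and endodermal ones, with 4 of 22. Values are log2 fluorescence intensities, quantile normalised by the authors, and a gene was called when a limma model over all 42 arrays gave a log2 change of 1.5 or more in either direction with an adjusted p no higher than 0.01. Of 21308 genes, 104 were called higher at d5 (0.488% of the genes tested) and 90 lower (0.422%). The median log2 change was 2.06 among those called higher and -1.88 among those called lower, against -0.00 over all genes. The call itself required a change of 1.5 or more on these arrays. Such medians, and the separation of the arrays given next, are therefore no separate support. Of the 104 genes, 101 lay higher on every d5 array than on every d3 array, and of the 90 genes, 89 lay lower in each of the 9 pairs. At an adjusted p of at most 0.05 without a minimum change, 619 genes (2.91%) were higher and 691 (3.24%) lower.

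These counts borrow the spread of the other arrays. With only the 6 G- arrays in the fit, limma called 0 genes in either direction, with 3 higher and 24 lower at the looser adjusted p limit of 0.05 and 5285 probes at an unadjusted p under 0.05. The same 6 arrays with the replicate number as a block, which here is also the slide, gave 3 higher and 5 lower, and 71 and 104 at the looser limit. Without d5 G- replicate 1, 26 genes were called higher and 52 lower, and without d5 G- replicate 3, 220 were called higher and 123 lower.

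The reporter gene itself did not pass the test. Gsc, the gene that carries the reporter used for the sort, measured 7.85, 8.10 and 8.74 on the d3 arrays and 8.45, 8.75 and 9.80 on the d5 arrays. These ranges overlap, and the log2 change of 0.77 (standard error 0.47) had a limma adjusted p of 0.531. The d5 G- arrays all lay below the mean of 11.78 in d3 G+ cells and of 12.95 in d5 Ghigh cells. Hhex, a homeobox gene of the anterior endoderm, measured between 7.13 and 7.53 at d3 and between 7.29 and 7.74 at d5.

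The number of probes above background ran from 25887 to 39603 over the 6 arrays, with replicate 3 the highest on both days, and no probe was saturated. At d3 and at d5, all 8 epiblast markers were above background on every array, and their summed log2 level ran from 16.07 to 16.66 at d3 and from 15.32 to 16.57 at d5. The summed level of 6 mesoderm markers lay between 8.65 and 9.47 at d3 and, without overlap, between 10.42 and 13.83 at d5. Definitive endoderm markers summed to between 9.64 and 11.05 at d3 and between 10.75 and 13.33 at d5, ranges that overlap. Of 6 extraembryonic endoderm markers, Afp, Apoa4 and Ttr, which define visceral endoderm, were not above background on any of the 6 arrays. On each day 1 of these 6 markers was above background on all 3 arrays. Postn was not above background on any array, but 5 of 6 fibroblast markers were on every array of each day. The fibroblast markers summed to between 10.10 and 10.71 at d3 and between 10.46 and 12.45 at d5, ranges that overlap. Germ cell markers summed to 10.67 to 11.41 at d3 and 9.65 to 10.81 at d5. The part of a change in cell makeup in the results below was not tested.

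Mesodermal genes held the most genes called higher of any list. Of 34 listed mesoderm genes, 10 were called higher and 0 lower, or 29.4% of the list against 0.488% of all genes, and the median change of the list was 0.33 against -0.00. Hand1, a bHLH factor of extraembryonic and heart mesoderm, went from 7.13, 6.79 and 5.84 at d3 to 12.75, 10.65 and 8.76 at d5, a 17.5-fold rise (log2 change 4.13, standard error 0.83, limma adjusted p = 0.00263). The lowest d5 array exceeded the highest d3 array, with replicate 1 the highest and replicate 3 the lowest at d5.

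The probes of Kdr, the VEGF receptor that marks early posterior and lateral mesoderm, disagreed. The Kdr probe that passed the test measured 6.27, 6.40 and 5.82 at d3 and 12.20, 10.27 and 8.51 at d5 (17.9-fold, log2 change 4.16, adjusted p = 0.00205). The Kdr probe of largest mean measured 11.12, 10.34 and 10.86 at d3 and 11.35, 10.77 and 10.97 at d5, with overlapping days, and was not called (log2 change 0.26, adjusted p = 0.681). Which probe reads the Kdr transcript was not tested, and all further values of Kdr are those of the probe that passed. With 1 probe per gene, 9 of the 34 mesoderm genes were called higher and the list median was 0.29.

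Hand2, a relative of Hand1, was above background on 1 of 3 arrays at d3, with 4.93, 4.60 and 5.19, and on all 3 at d5, with 10.56, 8.61 and 6.88 (log2 change 3.78, adjusted p = 0.000272). Foxf1, a forkhead factor of splanchnic and extraembryonic mesoderm, measured 6.06, 5.01 and 5.38 at d3 and 10.50, 8.91 and 7.06 at d5, a 10.1-fold rise (adjusted p = 0.00822). Gata4, a zinc finger factor of cardiac mesoderm and primitive endoderm, rose 8.67-fold, from 7.08, 6.81 and 6.56 to 11.48, 10.08 and 8.23 (adjusted p = 9.01e-05). All 3 genes showed the same order of the d5 arrays as Hand1, with no overlap between the days. Tbx20, a heart T-box factor, Pdgfra and Pdgfrb, receptors of mesenchyme, Cdh11, a mesenchymal cadherin, and Meox1, a homeobox gene of somites, completed the group, with log2 changes from 2.24 to 2.57.

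Of 22 primitive streak and mesendoderm genes, 2 were called higher and 1 lower (9.09% and 4.55%, against 0.488% and 0.422% of all genes). The median of that list was 0.15, and its members Mesp1, Tbx6, Mixl1 and Eomes did not pass. Mesp1, the bHLH factor of nascent mesoderm, measured 7.51, 8.43 and 8.70 at d3 and 9.72, 9.79 and 7.01 at d5 (adjusted p = 0.852), and Tbx6, a paraxial mesoderm factor, changed by -0.01. Mixl1, a homeobox gene of the streak, measured between 7.35 and 8.03 at d3 and between 6.99 and 8.83 at d5, and Eomes, the T-box factor upstream of Mesp1, between 11.08 and 12.14 and between 11.95 and 13.16 (adjusted p = 0.107). In the mesoderm list of 34 genes, 21 changes were positive and 13 negative. Gata6, a member of it, gained 1.41 with an adjusted p of 0.0107, just outside both limits. Without d5 G- replicate 1 only Gata4 of the 10 mesoderm genes called higher kept its call, and Gata4 is also an endoderm gene. The log2 change of Hand2 then had an adjusted p of 0.0117, that of Kdr 0.0589, that of Hand1 0.0721 and that of Foxf1 0.15.

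**Figure D1:**
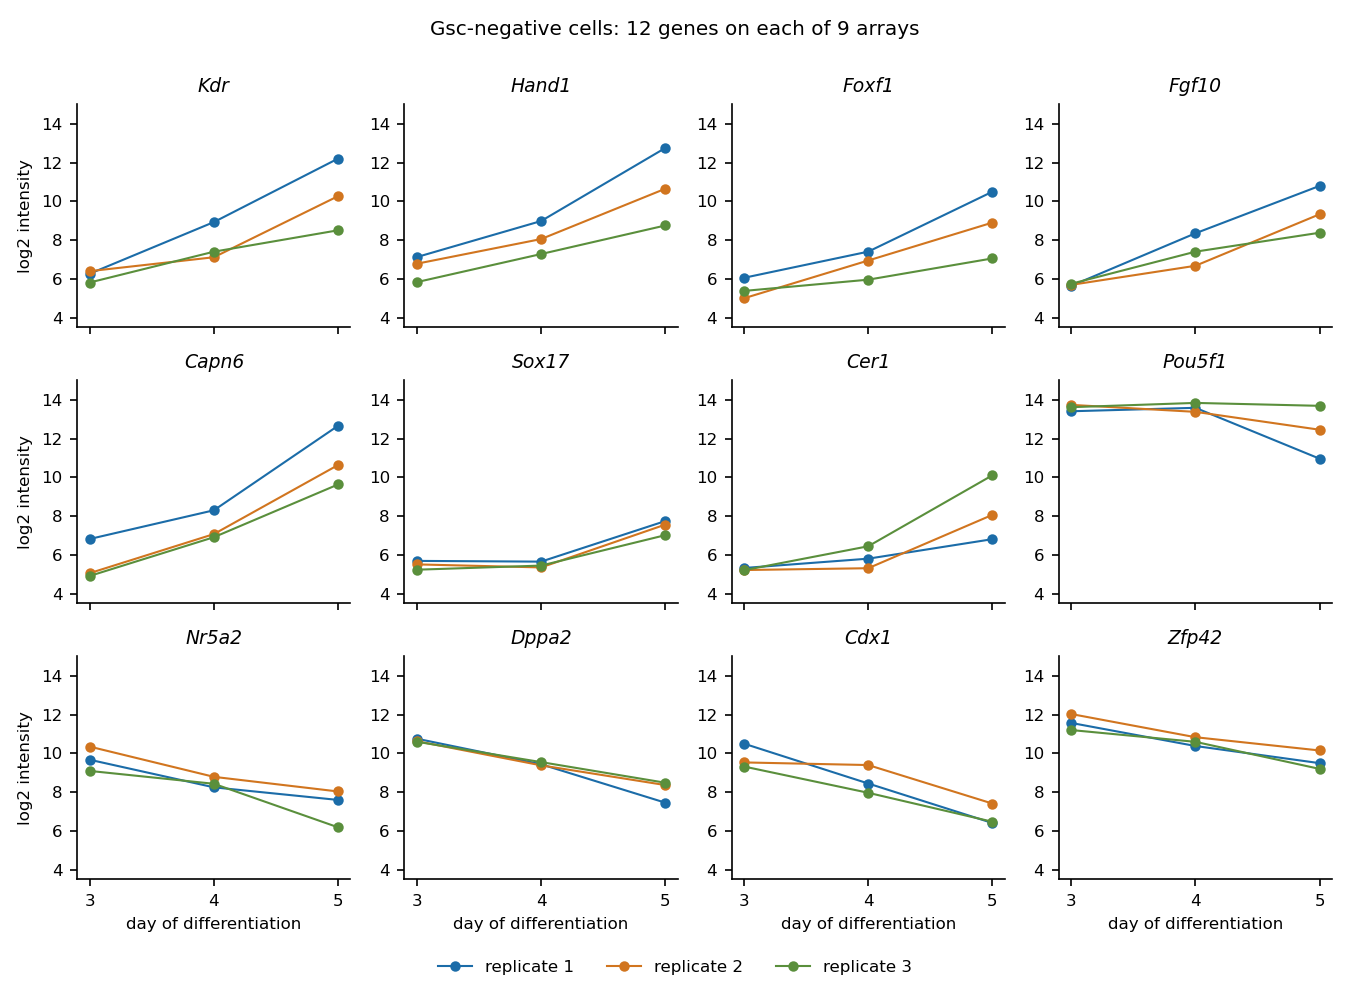
Log2 intensity (vertical axis) of 12 genes on the 9 arrays of the G- populations against day of differentiation (horizontal axis), with 1 line for each replicate number. Kdr (the probe that passed), Hand1, Foxf1, Fgf10 and Capn6 lay above their d3 values on every d5 array with replicate 1 the highest, Cer1 was highest on replicate 3 with 10.11, and Nr5a2, Dppa2, Cdx1 and Zfp42 lay below their d3 values on every d5 array.

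The largest changes outside the list included secreted and signalling genes. Capn6, a calpain family member without protease activity that is found in embryonic mesenchyme, showed the largest rise of any called gene, from 6.82, 5.06 and 4.92, with 2 of 3 arrays above background, to 12.66, 10.63 and 9.63 (41.5-fold, log2 change 5.37, standard error 0.50, limma adjusted p = 3.53e-08). Fgf10, a ligand of FGF receptor 2b in lateral mesoderm, measured 5.65, 5.70 and 5.75 at d3 and 10.80, 9.33 and 8.38 at d5, a 14.0-fold rise (adjusted p = 4.44e-08). The d3 values of Fgf10 spanned only 0.10, so that the spread lay in the d5 arrays.

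Pitx1, the homeobox gene of the hindlimb and of the posterior lateral plate, went from 7.12, 6.27 and 5.58 to 12.23, 10.68 and 7.52 (log2 change 3.82, adjusted p = 0.00199). Pcsk5, a proprotein convertase that processes TGF-beta family ligands, rose by 4.02, Prdm6, a repressor of smooth muscle precursors, by 4.12, Pmp22, a membrane protein of growth arrest and myelin, by 3.94, Stard8, a START domain protein, by 3.76, and Fbln2, an extracellular matrix fibulin, by 3.67 on the log2 scale. Each of these 5 genes lay higher on all d5 arrays than on all d3 arrays, again with replicate 1 at the top. In the list of 32 matrix and cytoskeletal genes, 0 were called by limma. At an adjusted p of at most 0.05, 4 were higher (against 2.91% of all genes). Among them was Col1a1, with 7.59, 6.93 and 6.06 at d3 and 11.95, 10.37 and 8.49 at d5 (adjusted p = 0.0327).

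Vascular and chemokine receptors were also among the 104. They were gathered after their values were seen. Nrp1, a co-receptor of VEGF and semaphorins, was not above background on any d3 array and measured 9.67, 7.76 and 6.12 at d5, at least 8.69-fold higher (adjusted p = 0.000107). Flt1, the decoy VEGF receptor, measured 8.71, 9.23 and 8.87 at d3 and 10.52, 10.52 and 11.29 at d5, and was 1 of 4 genes called higher that were highest on replicate 3. Vegfa, their ligand, rose by 1.69 and Runx1, a factor of blood-forming endothelium, by 2.28. Other vascular and blood genes were not called. These were Tal1, Lmo2, Etv2 and Cdh5 of the mesoderm list, Fli1 (limma adjusted p = 0.0137) and Vegfc (limma adjusted p = 0.104). Cxcr4, the receptor for Cxcl12 that is listed with both streak and endoderm genes, went from 6.20, 5.37 and 5.29 to 9.77, 8.23 and 6.99 (log2 change 2.71, adjusted p = 6.7e-05), and Ackr3, the scavenger receptor for the same ligand, rose by 3.34.

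Of 18 BMP signalling genes, 2 were called higher (against 0.488% of all genes), Bmp2, a ligand (log2 change 2.06, adjusted p = 0.00145), and Msx2, a homeobox target (2.90, adjusted p = 0.00822). Id3, another target, gained 1.33 with an adjusted p of 0.0066 and so missed the minimum change. The median of the BMP list was 0.58. Without d5 G- replicate 1 neither call held, with an adjusted p of 0.045 for the log2 change of Bmp2 and 0.163 for the log2 change of Msx2. In the FGF and ERK list of 21 genes, Fgf10 was called higher and Fgf4, the ligand of pluripotent cells, lower. Each is 4.76% of the list, against 0.488% and 0.422% of all genes. Fgf4 measured 9.81, 10.69 and 10.67 at d3 and 7.28, 8.70 and 9.59 at d5. With the replicate number as a block over the 33 untreated arrays the log2 change of Fgf4 had an adjusted p of 0.0137, and without d5 G- replicate 1 of 0.204, so that its call was lost.

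Of 24 Wnt signalling genes, 1 was called lower (4.17% against 0.422% of all genes), Cdx1. This caudal homeobox gene, a direct Wnt target of the posterior streak, fell from 10.50, 9.53 and 9.32 to 6.41, 7.41 and 6.47 (log2 change -3.02, standard error 0.44, adjusted p = 5.26e-05). No other of the 29 Hox and Cdx genes was called. Hoxb1, the most 3' gene of the HoxB cluster, measured 8.78, 6.78 and 6.42 at d3 and was not above background on any d5 array, at least 5.31-fold lower, with an adjusted p of 0.0114 that missed the limit. Hoxb8 and Hoxb2, further HoxB genes, spread widely within each day, with Hoxb8 at 8.83, 6.33 and 5.29 at d3 and 9.02, 7.46 and 5.15 at d5.

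Of 22 definitive endoderm genes, 4 were called higher (18.2% against 0.488% of all genes) and 0 lower, and the list median was 0.24. Sox17, the HMG box factor of definitive and primitive endoderm, measured 5.69, 5.51 and 5.24 at d3 and 7.75, 7.56 and 7.02 at d5 (log2 change 1.96, standard error 0.43, adjusted p = 0.0057). All d5 arrays lay above all d3 arrays, yet below the means of 9.41 in d5 Glow and 12.38 in d5 Ghigh cells. The log2 change of Sox17 had an adjusted p of 0.0625 without d5 G- replicate 1 and of 0.0148 with replicate blocks over the 33 untreated arrays, so that its call was lost in both. Cyp26a1, which degrades retinoic acid, rose from 9.90, 9.75 and 9.31 to 12.08, 11.59 and 10.95 (adjusted p = 8.7e-05), Sfrp5, a secreted Wnt antagonist of anterior endoderm, rose by 1.91, and Cxcr4 was the other.

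Cer1, a secreted antagonist of Nodal, BMP and Wnt from anterior endoderm, was above background on 1 of 3 d3 arrays, with values from 5.22 to 5.33, and measured 6.81, 8.07 and 10.11 at d5. Its log2 change of 3.07 had an adjusted p of 0.0377 and was not called. Here replicate 3 was the highest, the opposite of the mesodermal genes. Foxa2, the forkhead factor of endoderm and axial mesoderm, gave 8.92, 10.05 and 10.61 at d3 and 9.60, 11.51 and 12.91 at d5, with overlapping ranges (adjusted p = 0.245). Of 23 extraembryonic endoderm genes only Foxq1, a forkhead gene, was called (4.35% against 0.488% of all genes), with a log2 change of 3.01. Foxq1 sits beside Foxf2, also called higher (2.07), on chromosome 13.

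Cfc1, which encodes the Nodal co-receptor Cryptic, was the called gene among 17 Nodal signalling genes (5.88% against 0.488% of all genes). Its values were 7.25, 7.81 and 7.04 at d3 and 11.04, 9.96 and 9.14 at d5 (6.4-fold, adjusted p = 2.83e-05). In the neural list of 30 genes only Ncam1, a cell adhesion molecule that is also found in mesoderm, was called (3.33% against 0.488% of all genes). The list median was -0.14. En2, a midbrain homeobox gene, lay between 7.81 and 8.73 at d3 and between 6.64 and 6.89 at d5 (adjusted p = 6.7e-05), but narrowly missed the minimum change. Sox1 and Pax6, which define neural progenitors, changed by -0.20 and -0.40 and were not called. In the surface ectoderm list of 18 genes, Msx2 was called, and in the trophoblast list of 14 measured genes, Hand1 (5.56% and 7.14% against 0.488%). In both cases the gene also belongs to a mesodermal or BMP list.

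Naive pluripotency genes moved down together. Of 16 listed genes 7 were called lower, or 43.8% against 0.422% of all genes, 1 was called higher, and the median change was -1.66. Tdh, the threonine dehydrogenase of mouse ESCs, measured 14.26, 14.77 and 13.54 at d3 and 11.85, 12.62 and 11.40 at d5 (log2 change -2.23, standard error 0.40, limma adjusted p = 0.00069). Nr5a2, a nuclear receptor that can sustain Pou5f1 expression, went from 9.67, 10.35 and 9.09 to 7.60, 8.03 and 6.19, a 5.39-fold fall (adjusted p = 1.77e-05). Zfp42, the Rex1 gene, measured 11.57, 12.03 and 11.20 at d3 and 9.49, 10.15 and 9.20 at d5 (log2 change -1.98, adjusted p = 0.00042). In these 3 genes replicate 2 was the highest on both days and the days did not overlap.

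Tfcp2l1, a factor of the naive network, Tcl1, a cofactor of AKT, Fbxo15, an F-box gene driven by Pou5f1 and Sox2, and Fgf4 were the other 4, with log2 changes from -2.31 to -1.78. Tbx3, the T-box gene called higher, is also a gene of lateral and extraembryonic mesoderm, and went from 8.73, 8.03 and 7.50 to 12.91, 11.57 and 9.77 (log2 change 3.33, adjusted p = 0.0047), with the same order of arrays as Hand1. Esrrb, an orphan nuclear receptor of the naive network, measured 11.36, 11.44 and 10.13 at d3 and 10.59, 10.97 and 8.86 at d5 and was not called (adjusted p = 0.597). Klf4 and Dppa3, further naive genes, changed by -0.44 and -0.01.

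Among 16 core pluripotency genes 3 were called lower (18.8% against 0.422% of all genes), with a list median of -0.74. Dppa2, which binds CpG-rich promoters of pluripotent cells, measured 10.75, 10.63 and 10.60 at d3 and 7.46, 8.36 and 8.49 at d5 (log2 change -2.56, standard error 0.23, adjusted p = 3.01e-08). Its partner Dppa4 changed by -1.65, and Dnmt3l, the catalytically inactive cofactor of de novo DNA methylation, fell from 12.92, 13.49 and 12.45 to 10.12, 10.87 and 10.62 (adjusted p = 0.000105). Dnmt3l was also the only gene called among 18 genes of PRC2 and DNA methylation (5.56% against 0.422% of all genes). In that list Eed, Mtf2 and Tet1 were lower at an adjusted p of at most 0.05 by 0.52, 0.55 and 1.11, and Ezh2 changed by -0.12.

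Pou5f1, which encodes the central pluripotency factor Oct4, measured 13.40, 13.73 and 13.61 at d3 and 10.96, 12.45 and 13.68 at d5 (adjusted p = 0.398). One d5 array, replicate 3, thus lay within the d3 range and another, replicate 1, lay more than 2 log2 units below it. Nanog went from between 10.27 and 10.51 to 8.81, 9.79 and 9.55, lower in all 9 pairs (adjusted p = 0.136), and Sox2 from between 10.32 and 10.66 to between 9.66 and 9.83 (adjusted p = 0.0909). No gene of the 23 formative and primed epiblast genes was called by limma. At an adjusted p of at most 0.05, 1 was higher and 0 were lower (against 2.91% and 3.24% of all genes). Fgf5, the epiblast FGF, measured 10.69, 12.34 and 13.19 at d5, and Otx2, a homeobox gene of the anterior epiblast, 10.69, 12.08 and 13.32, both highest on replicate 3.

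Few germ cell genes were called. Of 15 listed genes 2 were called lower (13.3% against 0.422% of all genes), while 7 of the 15 changes were positive and the list median was -0.01. The 2 genes were Tdrd12, a Tudor protein of the piRNA pathway, with 8.96, 9.33 and 8.49 at d3 and 6.42, 7.17 and 5.74 at d5 (adjusted p = 1.96e-06), and Ddx4, the Vasa helicase, with a log2 change of -1.51. Dazl, an RNA-binding protein of germ cells, measured 5.86, 6.34 and 5.89 at d3 and was not above background on any d5 array, at least 2.29-fold lower (adjusted p = 8.9e-05). That change of -1.31 was under the minimum. The largest fall of all called genes was in Rpl10l, a retrogene of ribosomal protein L10 used in the testis, from 9.78, 10.20 and 8.59 to 6.51, 6.92 and 5.15 (log2 change -3.33, standard error 0.44, adjusted p = 1.06e-05). Rpl39l, the testis-enriched copy of another ribosomal protein, fell from 8.74, 8.92 and 7.96 to 5.65, 5.93 and 4.89 (adjusted p = 2.15e-07). Both genes are near-identical to their parent genes, and the share of the parents in these signals was not tested.

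Morc1, an ATPase that silences transposons in male germ cells, went from 9.37, 9.88 and 8.29 to 6.92, 7.17 and 5.58 (adjusted p = 7.7e-06) and lies next to Dppa4 and Dppa2 on chromosome 16. In the order of 21887 coding genes of RefSeq, 18 of the 86 genes called lower that could be placed lay within 3 positions of another such gene, and 10 of the 103 called higher. The number for genes picked at random from this order was not computed, so these counts show no excess. Of the 18, 8 are the zinc finger copies of chromosome 4 given below. Triml1, Triml2 and Zfp42 form such a run on chromosome 8, Phf11a and Phf11d on chromosome 14 and Plekha4 and Hsd17b14 on chromosome 7. On chromosome 4, Zfp987, Zfp600, Zfp981 and Rex2 formed a run, and Zfp982, Zfp985, Zfp979 and Zfp984 another. These zinc finger genes changed by -1.59 to -2.33, with Zfp987 at 10.70, 10.64 and 10.66 at d3 and 7.77, 8.28 and 8.96 at d5. They are near-identical copies, so their 8 changes are not separate measurements and the share of each gene is uncertain. Among the genes called higher, Pdgfra and Kdr on chromosome 5 were neighbours of this kind.

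Further genes called lower had other roles. Mymx, which encodes the fusion peptide myomixer of muscle, went from 9.19, 9.19 and 8.22 to 6.37, 6.32 and 5.30, Capn3, a muscle calpain, from between 7.82 and 8.14 to between 5.28 and 5.66 with 1 of 3 d5 arrays above background, and Pde2a, a cyclic nucleotide phosphodiesterase, from between 11.57 and 12.35 to between 9.16 and 10.45. Phf11d, a PHD finger gene, changed by -2.70 (adjusted p = 6.58e-05). All 4 genes were lower in each of the 9 pairs of arrays. Nefh and Ina, which encode neurofilaments and were chosen after their values were seen, changed by -2.39 and -1.89. Nefl, of the same family, changed by -1.07 (limma adjusted p = 0.624) and was not called. Nefm was not called either, with 8.62, 8.47 and 9.32 at d3 and 5.93, 7.69 and 9.12 at d5.

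The remaining lists held few calls. In glycolysis and hypoxia, Vegfa was called, and 7 of 26 genes were higher at an adjusted p of at most 0.05 (against 2.91% of all genes), with a median of 0.48. P4ha1, a prolyl hydroxylase of collagen, measured 6.61, 6.48 and 6.53 at d3 and 8.29, 7.56 and 7.67 at d5 (adjusted p = 0.0015), and Slc16a3, a lactate exporter, gained 1.27. In the lysosome list, 5 of 17 genes were higher at that limit, beside the same 2.91%, with Npc2, a cholesterol carrier of the lysosome, the clearest, from between 11.83 and 12.02 to between 12.85 and 13.87 (adjusted p = 2e-05). In the list of metallothioneins and oxidative stress, 3 of 14 genes were lower at that limit (against 3.24% of all genes), among them Gclm, a subunit of glutathione synthesis (log2 change -1.07), and the median was -0.61.

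Mest, an imprinted gene of mesoderm, was called higher among 16 measured imprinted genes (6.25% against 0.488% of all genes). It measured 10.26, 9.09 and 9.60 at d3 and 12.46, 11.21 and 10.57 at d5. The log2 change of Mest had an adjusted p of 0.0108 with replicate blocks over the 33 untreated arrays, which lost the call. Hes3, a bHLH repressor, was called lower among 16 Notch genes (6.25% against 0.422% of all genes). By limma 0 genes were called among the epithelial to mesenchymal transition genes, cholesterol synthesis, amino acid metabolism, p53 targets, cell cycle genes and CDK inhibitors. At an adjusted p of at most 0.05 these lists held 1, 0, 1, 1, 2 and 0 genes, of 21, 19, 20, 18, 27 and 7 measured. Over all genes 2.91% were higher and 3.24% lower at that limit. Snai1, the transition factor of the streak, changed by 0.09 and Cdh1, the epithelial cadherin, by -0.31.

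**Figure D2:**
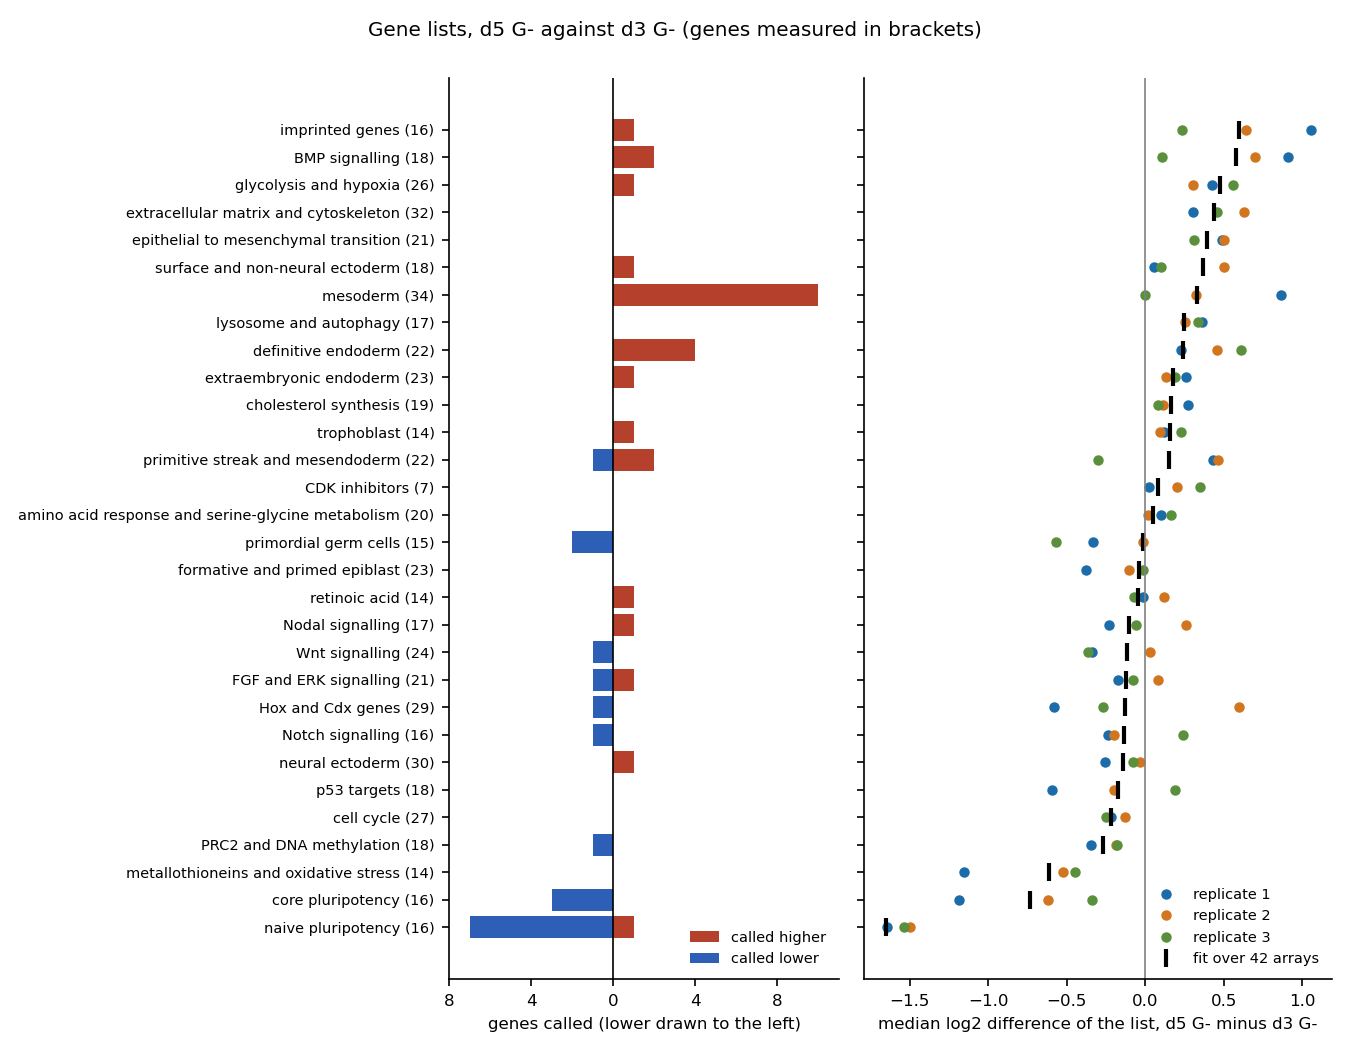
Left, number of genes called higher (red) or lower (blue) at d5 against d3 in each list, with the number measured in brackets; right, median log2 difference of each list on the arrays of each replicate number and in the fit over 42 arrays (black bars). Mesoderm held 10 genes called higher and naive pluripotency 7 called lower, and the median of the naive list was -1.65 on replicate 1 and -1.54 on replicate 3, while that of the mesoderm list was 0.87, 0.32 and -0.00.

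The size of the change differed between replicates. The d3 and d5 arrays with the same number share a slide, which allowed 1 difference for each of 3 slides. Over the 104 genes called higher the median within-slide difference was 3.09 for replicate 1, 2.00 for replicate 2 and 1.40 for replicate 3, and over the 90 genes called lower it was -2.28, -1.90 and -1.51. Replicate 1 gave the largest rise in 94 of the 104 genes and the largest fall in 59 of the 90. The median SD of the called genes was 0.70 over the d5 G- arrays, 0.39 over the d3 G- arrays and 0.38 over the d5 Glow arrays.

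Within d5, 210 genes were at least 2 log2 units higher on replicate 1 than on replicate 3, and 90 at least 2 lower. At d3 these numbers were 44 and 251. Euclidean distances over all probes also set the d5 G- arrays apart. Replicate 1 lay 91.7 from d5 Glow replicate 1, and 103.1 and 127.0 from d5 G- replicates 2 and 3. Replicate 2 was nearest to d4 G- replicate 1 (95.6). Replicate 3 lay 69.1 from d4 G- replicate 3 and 75.1 from d3 G- replicate 3, but 118.8 from d5 G- replicate 2. Replicate 1 was the highest d5 array for 100 of the 104 genes called higher, and replicate 3 the lowest for 92. Of the 90 genes called lower, 53 were lowest on replicate 1 and 32 on replicate 3. The naive pluripotency genes Tdh, Nr5a2 and Zfp42 were lowest on replicate 3, whereas Pou5f1, Fgf4 and Dppa2 were lowest on replicate 1. Slide, sort and culture cannot be told apart in these differences among the G- arrays.

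**Figure D3:**
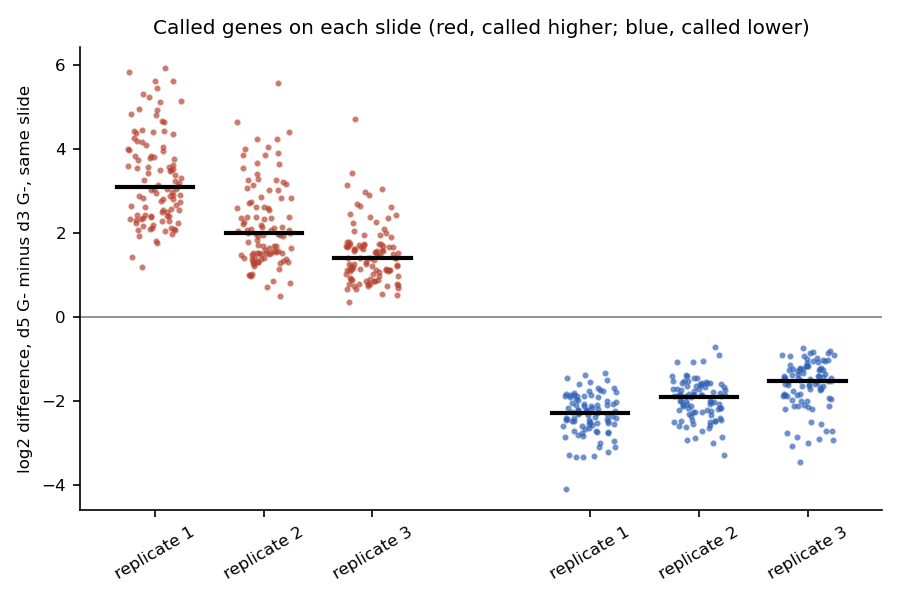
Log2 difference between the d5 G- and d3 G- array of the same slide (vertical axis) for each gene called higher (red, 104 genes) or lower (blue, 90 genes) in the 3 replicates (horizontal axis); black bars are medians. The medians of the genes called higher were 3.09, 2.00 and 1.40. Every gene lay on its own side of 0 in each replicate, which the minimum change of the call favours.

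In the median levels of the called genes, the d4 G- population lay between d3 and d5. From d3 to d4, limma called 0 genes higher and 2 lower (0.00939% of the genes tested), with 3123 probes at an unadjusted p under 0.05, and from d4 to d5 it called 6 higher (0.0282%) and 0 lower, with 4115 such probes. The 2 genes were Mymx and Capn3, which lost 2.14 and 1.94 in the first step. Capn6, Tnfaip2, an actin-binding protein induced by TNF, Spink1, a trypsin inhibitor, and Cfc1 were among the 6, with gains of 3.54, 2.70, 2.55 and 2.31 in the second step. With the replicate number as a block and only the arrays compared, limma called 0 genes in either step (3796 and 4444 probes at an unadjusted p under 0.05), and the first step also had 0 without d3 G- replicate 1 or 2 and 9 genes lower without d3 G- replicate 3. The second step had 49 genes higher without d5 G- replicate 3. The genes called higher from d3 to d5 had a median gain of 0.76 in the first step and 1.45 in the second, the second being larger in 85 of 104, and those called lower had medians of -0.90 and -1.04, the second larger in 56 of 90.

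Fgf10 and Cyp26a1 were already higher at d4 at an adjusted p of at most 0.05, Fgf10 by 1.78 (adjusted p = 0.0322), and Cyp26a1 with a d4 mean of 11.16 (adjusted p = 0.0208). Sox17 had a mean of 5.48 at d3 and 5.49 at d4, and Spink1 of 5.97 and 5.38. Of the genes called lower over both days, Dppa2, Atp6v1c2, a subunit of the proton pump, Gabra5, a GABA receptor subunit, and Nexmif, a neurite extension factor, were lower in the second step at an adjusted p of at most 0.05, by 1.35, 1.27, 1.25 and 1.18.

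The question of whether G- cells moved like their Gsc-positive counterparts was put as a test of the difference between the d3 to d5 change in G- cells and the d3 G+ to d5 Glow change. By this test 5 genes changed more positively in G- cells (0.0235%) and 4 more negatively (0.0188%). Called or not, 118 genes differed by 1.5 or more and 56 by -1.5 or less on the probe of largest mean. The test has a larger standard error, for Fgf10 0.51 against 0.36 in d5 against d3 G- cells. The low count therefore does not show that the courses were alike. The median change of the 104 genes was 1.83 from d3 G+ to d5 Glow and 1.54 from d3 G+ to d5 Ghigh, and that of the 90 genes was -0.95 and -0.97. In median log2 level, the 104 genes stood at 6.91 in d3 G-, 7.85 in d4 G- and 9.49 in d5 G- cells, against 8.84 in d3 G+, 10.57 in d5 Glow and 10.49 in d5 Ghigh cells. The 90 genes stood at 10.22 in ESCs, 9.07 in d3 G- and 6.99 in d5 G- cells, against 6.78 in d3 G+ and 5.78 in d5 Glow cells. The d5 G- level of both sets thus lay between those of d3 G- and d5 Glow cells, as did d3 G+.

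Fgf10 differed most in the positive direction, by 2.95 (standard error 0.51, adjusted p = 0.00848), with a mean of 10.52 in d3 G+ and 11.37 in d5 Glow cells beside the rise described above. Isg15, an interferon-induced ubiquitin-like protein, differed by 2.28, Cables1, a cyclin-dependent kinase adaptor, by 1.86, and Pkp1, a desmosomal plakophilin, by 1.74. Cables1 and Pkp1 changed by only 0.49 and 0.06 in G- cells, neither called, so that their difference lay mainly in the Gsc-positive cells. Abcc4, an exporter of cyclic nucleotides, fell in G- cells from 10.54, 11.03 and 10.77 to 9.16, 9.03 and 9.14 and differed by -2.11 (adjusted p = 8.47e-05). Trf, which encodes transferrin, differed by -1.76 and Atxn7l1 by -1.68. Wt1, the Wilms tumour factor of intermediate mesoderm, differed by -2.80 with an adjusted p of 0.0212 that missed the limit. Isg15 and Atxn7l1 passed only on a probe other than that of largest mean. Their probes of largest mean differed by 2.54 (limma adjusted p = 0.148) and by -0.23, and neither was called.

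Against the d3 G+ to d5 Ghigh change, 62 genes changed more positively in G- cells (0.291%) and 69 more negatively (0.324%). Among the 4 genes with the largest positive differences was Oasl2. Oasl2, an interferon-induced oligoadenylate synthetase-like gene, measured 8.53, 10.02 and 9.44 in d3 G- and 9.99, 10.76 and 10.07 in d5 G- cells, which was no called change, while its mean was 9.72 in d3 G+ and 5.58 in d5 Ghigh cells (difference 5.08, standard error 0.71, adjusted p = 7.89e-05). The guanylate-binding proteins Gbp2b and Gbp2 differed by 4.48 and 4.36 and Lgals3, a galectin, by 4.54. Igtp and Irgm1, interferon-inducible GTPases that were chosen after their values were seen, differed by 3.13 and 3.54.

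On the negative side stood Spink1, which rose in G- cells but reached a mean of 12.75 in d5 Ghigh cells (difference -5.40), Irs4, an insulin receptor substrate, with -4.72, Pga5, a pepsinogen, with -4.34, and Sox17 with -3.85. Irs4 and Pga5 were not called in G- cells, where their log2 changes were 0.52 and 1.19. For Sox17 the G- cells thus rose by less than the Gsc-high cells, a difference that passed the test (adjusted p = 0.000432).

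Set directly against d5 Glow cells, d5 G- cells were higher in 138 genes (0.648%) and lower in 29 (0.136%). Tdh exceeded its Glow level by 4.35 (adjusted p = 4.43e-08), Esrrb by 3.17, Gdf3, a Nodal-related ligand of pluripotent cells, by 3.17 and Abcg1, a sterol transporter, by 3.10. Of the 90 genes that were called lower over the 2 days, 21 were still called higher in G- than in Glow cells at d5. Lmo1, a LIM-only cofactor, lay 2.41 below its Glow level, with 7.63, 7.06 and 6.59 on the d5 G- arrays, Plxna4, a semaphorin receptor, 2.13, Gata6 2.10 and Trim9, a neuronal ubiquitin ligase, 2.09. Of the 104 genes called higher, 6 remained below Glow by the same limits. Without d5 G- replicate 1 these counts became 272 and 125, without d5 Glow replicate 1, 43 genes were called higher, and without d5 G- replicate 3, 3 genes were called lower. With the replicate number as a block and only the arrays compared, 51 genes were called higher, 36 of them among the 138, and 1 lower, which was not among the 29, so that the calls of Lmo1, Plxna4, Gata6 and Trim9 were lost there.

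**Figure D4:**
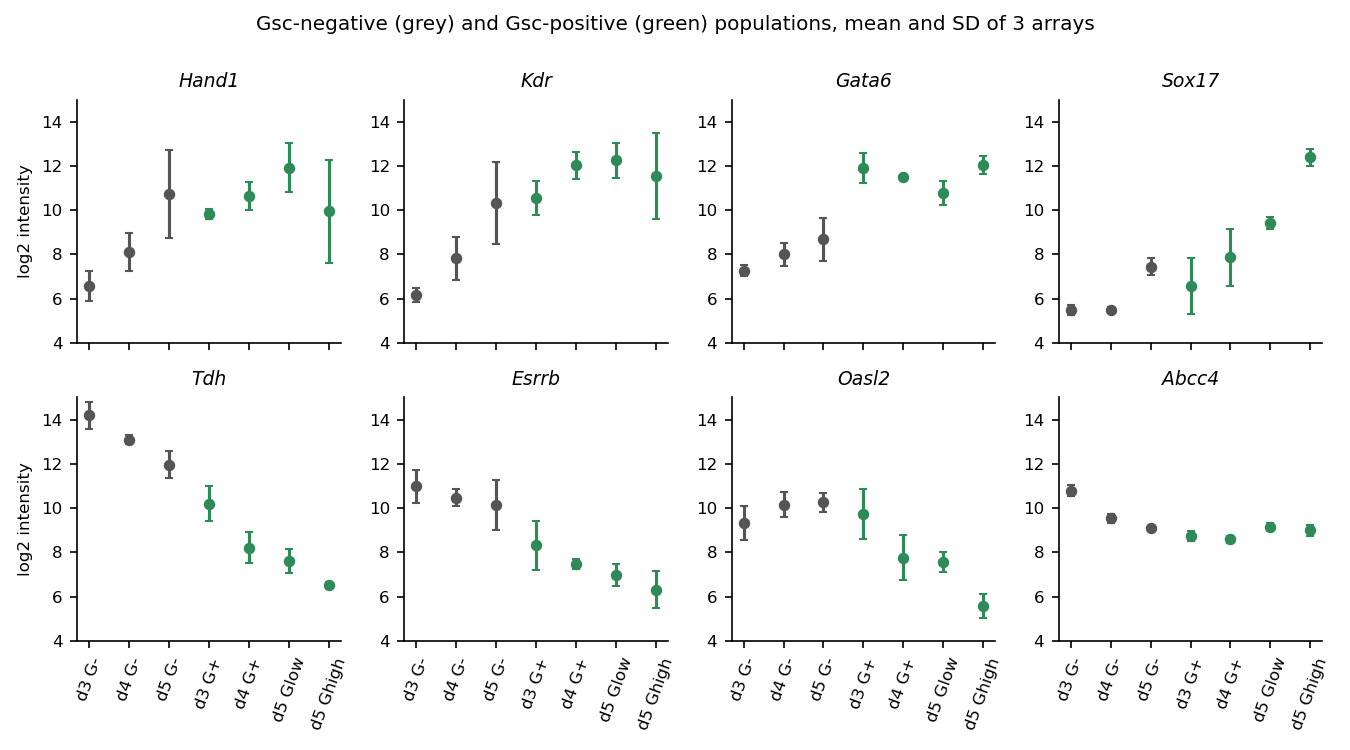
Mean log2 intensity with SD (vertical axis) of 8 genes in the Gsc-negative (grey) and Gsc-positive (green) populations, 3 arrays each. In d5 G- cells Hand1 had a mean of 10.72 against 9.83 in d3 G+ cells, Kdr (the probe that passed) 10.33 against 10.55, Gata6 8.68 against 11.90 and Sox17 7.44 against 6.58, Tdh and Esrrb lay above their Glow means, and Oasl2 was 10.27 against 5.58 in Ghigh cells.

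Promoters of 4 genes are shown as examples of the CG content around the start of transcription, which is given as a description without a test. They do not span its range, which ran from 1 to 50 CG pairs among the genes called higher and from 0 to 46 among those called lower. The sequences are those of RefSeq on GRCm38.p6, from 250 bases before the start to 50 after it, in lower case with each CG pair in capitals, and were chosen after the values were seen. They are Kdr (chr5:75978406-75978705, minus strand) and Hand2 (chr8:57320733-57321032, plus strand) among the genes that rose, and Nr5a2 (chr1:136960399-136960698, minus strand) and Zfp42 (chr8:43306960-43307259, minus strand) among those that fell.
Kdr: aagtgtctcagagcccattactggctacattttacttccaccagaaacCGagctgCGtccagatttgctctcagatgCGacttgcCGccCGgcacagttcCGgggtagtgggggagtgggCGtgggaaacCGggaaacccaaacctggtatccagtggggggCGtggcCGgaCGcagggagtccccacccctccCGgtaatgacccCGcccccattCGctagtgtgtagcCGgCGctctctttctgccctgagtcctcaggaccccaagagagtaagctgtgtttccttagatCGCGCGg
Hand2: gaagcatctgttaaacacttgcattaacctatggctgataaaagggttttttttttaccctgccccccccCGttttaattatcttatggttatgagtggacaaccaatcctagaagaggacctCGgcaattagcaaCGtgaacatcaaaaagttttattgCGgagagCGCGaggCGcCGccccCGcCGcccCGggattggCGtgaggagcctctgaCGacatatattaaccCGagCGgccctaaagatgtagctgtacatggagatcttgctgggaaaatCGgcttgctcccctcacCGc
Nr5a2: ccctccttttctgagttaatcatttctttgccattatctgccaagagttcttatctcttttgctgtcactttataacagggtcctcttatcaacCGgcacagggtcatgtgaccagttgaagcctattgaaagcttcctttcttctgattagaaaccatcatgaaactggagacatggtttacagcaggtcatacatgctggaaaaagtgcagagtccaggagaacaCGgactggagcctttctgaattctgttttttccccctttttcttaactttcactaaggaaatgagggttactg
Zfp42: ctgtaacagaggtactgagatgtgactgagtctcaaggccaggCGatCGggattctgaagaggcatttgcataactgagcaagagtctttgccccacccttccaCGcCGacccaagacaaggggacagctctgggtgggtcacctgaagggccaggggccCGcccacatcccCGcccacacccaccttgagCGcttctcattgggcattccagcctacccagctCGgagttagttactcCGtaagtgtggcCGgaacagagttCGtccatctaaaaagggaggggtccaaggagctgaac
These promoters hold 19, 17, 2 and 11 CG pairs. A promoter was matched for 73 of the 104 genes called higher, 65 of the 90 called lower and 16599 of the 21308 genes tested. The median number of CG pairs was 17 in the first set, 8 in the second and 14 over all genes, and the median GC content 61.3%, 52.7% and 57%. Fewer than 6 CG pairs were found in 21.9%, 36.9% and 29.8% of the promoters.

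A search for 5 short motifs was made on both strands, and no motif contains another. GATAAG, bound by GATA factors, was present in 5.48% of the promoters of genes called higher, 4.62% of those called lower and 6.45% of all. CAGCTG, an E-box, was present in 21.9%, 21.5% and 15.7%, CACGTG, another E-box, in 6.85%, 12.3% and 8.3%, ATTTGCAT, the octamer, in 2.74%, 4.62% and 1.74%, and AACAAAG, a motif of SOX and TCF factors, in 5.48%, 6.15% and 4.97%. Each share of the called genes rests on 2 to 16 promoters.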

How the data were processed

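The series holds 42 single-colour Agilent arrays in 14 groups of 3. The deposited log2 values were made by the authors with limma (version not given in the sources used here) from the scanner intensities, in which background was corrected by normexp (offset 10) and arrays were then quantile normalised. The deposited scanner intensity files gave the flags for signal above background and were used to recompute the log2 values. Control spots were left out, 432 probes printed more than once were averaged, and 55681 probes remained. RefSeq accessions on 28066 probes were matched to symbols of GRCm38.p6 (21850 of 22201 accessions), which gave 21308 genes, called if any of its probes passed. A gene is shown by its probe of largest mean, except that the passing probe is shown where only another passed, as for 6 genes called higher, Kdr among them, and 4 called lower. Isg15 and Atxn7l1 are shown by another probe in the comparison with the Glow course. All 42 arrays entered a single linear model, in which each group had its own mean (limma 3.58.1, R 4.3.3) with Benjamini-Hochberg adjustment over all probes, and was tested on simulated data.

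Samples were grouped by title. Whether replicates were separate cultures is given only as independent experiments, and 3 arrays a group limit the precision. The d3 G- and d5 G- arrays of the same number share a slide, per the file headers, and their deviations from the group means correlated at 0.20, 0.38 and 0.50, so the numbers were taken to pair the arrays. Genes named were the 12 largest changes in each direction for d5 against d3 and the 4 largest for other comparisons, and the members of gene lists. The members, lists and tests were chosen with earlier results of these data known. A gene dim on every array of a group was given as a lower bound of its fold. Alternatives were other background corrections, scalings, filters and sets of arrays, replicate and slide blocks, array weights, 1 probe per gene, a test against a minimum change, and leaving out each replicate.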

Additional observations from a re-analysis of the deposited data

Results flagged for a closer look

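The change from d3 to d5 differed between G- cells and the d3 G+ to Glow course in 9 genes, 5 more positive and 4 more negative in G- cells, by the limma test of the difference itself. On the log2 scale the differences were 2.95 for Fgf10, 2.28 for Isg15, 1.86 for Cables1 and 1.74 for Pkp1, and -2.11 for Abcc4, -1.76 for Trf and -1.68 for Atxn7l1. For Isg15 and Atxn7l1 the probe of largest mean was not called. Against the d3 G+ to Ghigh course, 62 genes were more positive and 69 more negative in G- cells. The differences were 5.08 for Oasl2, 4.54 for Lgals3, 4.48 for Gbp2b and 4.36 for Gbp2, and -5.40 for Spink1, -4.72 for Irs4, -4.34 for Pga5 and -3.85 for Sox17.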

How the results depend on the processing

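The counts of d5 against d3 G- cells (104 higher, 90 lower) became 67 and 56 with a normexp offset of 50, 28 and 43 in a test against a log2 change of 0.5, and 0 and 0 with the 6 arrays quantile normalised alone (limma, 5164 probes at an unadjusted p under 0.05) or fitted alone (5285 probes). Leaving out 1 replicate gave 26 to 220 higher and 52 to 123 lower, both lowest without d5 G- replicate 1 and highest without d5 G- replicate 3. The share called higher, 53.6%, was 33.3% without d5 G- replicate 1 and 64.1% without d5 G- replicate 3.

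With the replicate block and only the arrays compared, the counts were 3 and 5 for d5 against d3, 0 lower for d4 against d3, 0 higher for d5 against d4, 0 and 1 for the difference from the Glow course, 9 and 27 for that from the Ghigh course, and 51 and 1 for d5 G- against Glow. The replicate block over 33 untreated arrays gave 1 lower for d4 against d3 and lost 3 of 59 named calls, Sox17, Fgf4 and Mest. Without the block, only the arrays compared gave 0 lower, 0 higher, 0 and 0, 6 and 17, and 0 and 0 for the same 5 comparisons, and kept 0 of the 59 named calls.

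For d4 against d3 (0 higher, 2 lower) the counts were 1 lower with offset 50, 0 lower with the 75th percentile scaling, the 33 untreated arrays or the minimum change test, 1 higher with slide as a random block, and 4 and 5 with array weights, and leaving out a replicate gave 0 to 1 higher and 0 to 9 lower. For d5 against d4 (6 and 0) they were 1 higher with offset 50, 2 with the 75th percentile, 0 with 33 arrays or the minimum change test, 12 and 1 with slide, 11 higher with weights, and 1 lower with the filter on dim probes or 1 probe per gene, and leaving out a replicate gave 0 to 49 and 0 to 7.

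For the difference from the Glow course (5 and 4) the counts were 3 higher when recomputed, 0 and 1 with the 75th percentile, 8 higher with the filter, 1 and 1 with 33 arrays, 10 and 10 with slide, 13 and 11 with weights, 0 and 0 with the minimum change test, and 0 to 6 and 1 to 10 without a replicate. For the Ghigh course (62 and 69) they were 22 higher with the 75th percentile, 108 and 120 with weights, 19 and 26 with the minimum change test, and 35 to 64 and 41 to 80 without a replicate. For d5 G- against Glow (138 and 29) they were 83 and 15 with offset 50, 18 lower with the 75th percentile or 33 arrays, 46 lower with slide, 34 and 0 with the minimum change test, and 43 to 272 and 3 to 125 without a replicate. None of the 59 named calls changed direction under any alternative run. For named genes that were not called in either fit the direction was not compared. The cause of the changes was not tested.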

Other observations

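Some genes that spread over the d5 G- arrays took the same order of replicate numbers in the Gsc-positive populations of d5, and others did not. All were chosen after their values were seen. Replicates 1, 2 and 3 lay on slides 1, 2 and 4 in d5 G-, on slides 2, 2 and 4 in Glow and on slides 3, 1 and 5 in Ghigh cells. The part of the slide in the order was not tested. Hand1, the mesodermal bHLH factor, measured 12.76, 12.32 and 10.68 on the Glow arrays and 11.47, 11.11 and 7.27 on the Ghigh arrays of replicates 1, 2 and 3, and Foxf1 11.39, 10.87 and 9.17, and 10.72, 10.11 and 6.19. Both were highest on replicate 1 and lowest on replicate 3, as in G- cells.

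Cer1, the secreted antagonist of anterior endoderm, measured 7.26, 8.71 and 12.55 in Glow and 11.47, 12.30 and 14.91 in Ghigh cells, and Otx2, the anterior homeobox gene, 11.15, 11.90 and 14.04, and 13.82, 14.13 and 15.36. Both were highest on replicate 3. Foxj1, the forkhead gene of motile cilia, showed that order in all 3 populations, with 7.40, 8.60 and 10.58 in G-, 6.84, 8.42 and 11.27 in Glow and 6.54, 7.32 and 8.40 in Ghigh cells. The order was not shared by Eomes, the streak T-box factor, with 13.16, 12.54 and 11.95 in G- but 13.69, 13.81 and 13.91 in Glow cells, by Mixl1, with 8.83, 7.98 and 6.99 but 9.80, 9.90 and 9.93, or by Hoxb8, which was highest on replicate 1 in G- but on replicate 2 in Glow cells.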
